A study of Mus musculus with 9 samples.

Results

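The vehicle arrays give the expression profile of cultured fetal mouse prostate mesenchyme cells given androgen without added estradiol. They are the 3 arrays whose titles name the vehicle, of 9 arrays in the study. The other 6 arrays came from cells given estradiol (E2), 3 at 10 pM and 3 at 100 pM. The cells were urogenital sinus (UGS) mesenchyme from male CD-1 mouse fetuses on gestation day 17, used at first passage. Before passage they had been grown in serum that was not stripped of steroid hormones. Every group, the vehicle group included, was held for 3 days in charcoal-stripped serum with 690 pM dihydrotestosterone (DHT). Treatment then lasted 4 days with DHT still present. By the paper's methods, this medium also held insulin, transferrin and selenium. No group without DHT was analysed here, so the profile cannot be read as an effect of androgen. The vehicle was ethanol, at 0.05% by the sample's source name and at 0.5% by its treatment protocol. The mesenchyme had been parted from the epithelium by settling, so the cells were neither a clone nor a sorted population. The paper reports that the make-up of the fractions was checked by staining for cytokeratins and vimentin, with the data not shown. Total RNA was hybridised to Affymetrix Mouse Gene 1.0 ST arrays, and neither labels nor methods say that replicates came from separate litters.

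UGS mesenchyme is the connective tissue that surrounds the epithelium from which the prostate buds. In the male fetus it receives the androgen signal and passes it to the epithelium through secreted factors, among them members of the FGF, BMP, Wnt and TGF beta families. It also lays down the matrix of the stroma and gives rise to fibroblasts and smooth muscle.

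Signals are on the log2 scale, and each of 19938 named genes was represented by its probeset with the highest mean over the 3 vehicle arrays. The rank of a gene counts from 1, the brightest, and the rank percentile runs from 100 for the brightest to 0 for the dimmest. Probesets differ in how strongly they bind their target, so ranks order signals and not numbers of transcripts. A gene was called above the bound when its signal passed, on all 3 arrays, the 95th percentile of the 1015 olfactory receptor genes on that array. Those genes serve the sense of smell, and most are silent outside the nose. The bound was 5.60, 5.65 and 5.61 on the 3 arrays. In all 12936 genes, or 64.9%, were above it, and every count below is to be read against that share. At a strict bound, the 99th percentile of the same genes, 10095 genes or 50.6% were above it. The strict count is given for a list wherever it differs from the other by more than 1.5 times. With the 44 keratin-associated protein genes in place of the olfactory receptors, a reference chosen after seeing the data, 5916 genes passed their 95th percentile, so the number called depends on the reference. A gene below the bound is not shown to be absent. The median gene stood at 6.52, the quartiles at 5.18 and 7.98, and 78 genes exceeded 12.

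The 3 arrays were close to each other. The SD over the arrays had a median of 0.058 over all genes, 0.032 over the 100 brightest and 0.082 over the genes not above the bound. Of the 100 brightest genes, 94 were among the 100 brightest on each array taken alone. Only 7 genes above the bound had an SD over 0.3. The most variable were 1700066M21Rik, at 7.45, 7.88 and 7.14, and Gal3st2c, at 6.70, 6.34 and 5.97. The brightest of the variable genes was n-R5s136, named for a ribosomal 5S RNA, at 12.17, 12.36 and 12.79.

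Genes of the cytoskeleton, the matrix and the translation machinery led the profile, together with small noncoding RNAs. Eef1a1, which brings aminoacyl-tRNA to the ribosome, read 13.85, 13.88 and 13.85. Actb, cytoplasmic beta actin, read 13.69, 13.71 and 13.72. Both were steady over the arrays and stood at ranks 2 and 3. Col1a1 and Col1a2, the chains of type I collagen, stood at 13.58 ± 0.042 and 13.38 ± 0.035 (SD, n = 3), ranks 4 and 6. Acta2, the smooth muscle actin, read 13.35, 13.36 and 13.38. Thbs1, the matrix protein thrombospondin 1, read 13.32, 13.36 and 13.31. Lgals1, which encodes galectin 1, followed at rank 9 with 13.19, 13.25 and 13.23. Sparc and Fn1, a collagen-binding glycoprotein and fibronectin, stood at 13.12 ± 0.019 and 13.06 ± 0.011 (SD, n = 3). Rn7sk, the 7SK RNA that restrains transcription elongation, stood at 13.49 (rank 5) and Rny3, a Y RNA, at 13.13 (rank 10). COX2, the mitochondrial subunit of cytochrome c oxidase, and the nuclear noncoding RNA Malat1 were at 12.98 and 12.66, and the chaperone Hspa8 was at 12.79. The ribosomal protein genes Rps2, Rpl21, Rplp0, Rps6, Rpl10, Rpl9 and Rplp1 lay between 13.09 and 12.69. Neighbours in this order often could not be told apart, since the arrays of Acta2 and Col1a2 overlapped and so did those of Acta2 and Thbs1. Of the 100 brightest genes, 20 encode ribosomal proteins, a family with 60 of the 19938 named genes. The matrix lists hold 14 of the 100, and the 22 measured actin cytoskeleton and smooth muscle genes hold 8. A further 4 belong to glycolysis.

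**Figure D1:**
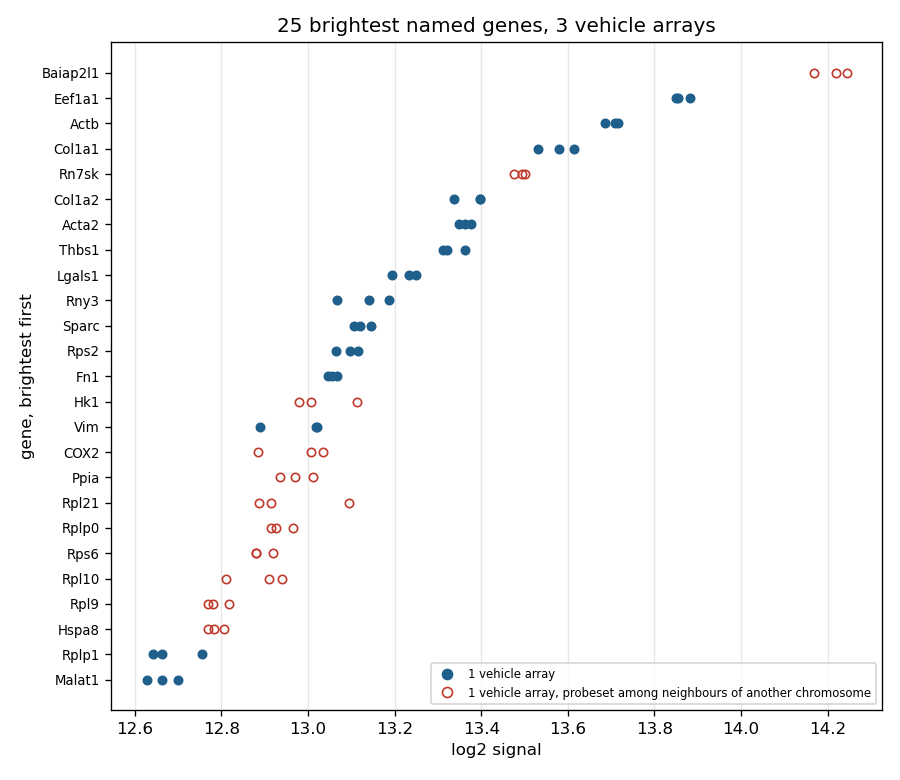
Log2 signal (x axis) of the 25 brightest named genes (y axis, brightest first), 1 point per vehicle array. Open red points mark genes whose probeset lies among probesets of another chromosome, as Baiap2l1 at rank 1 and Hk1 at rank 14, and filled blue points mark the others.

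The brightest signal of all carried the name Baiap2l1, an adaptor of the actin cytoskeleton, at 14.24, 14.17 and 14.22. The other probesets of that gene read 11.97 and 7.38, so the name rests on 1 probeset of 3. Probeset numbers on this array follow the chromosomes, which allows a check of where a probeset sits. Among 18702 genes with 1 probeset, 0.0909% lay among neighbours of another chromosome than the gene. Among 2786 probesets of genes with several, the share was 22.2%. For Baiap2l1, a gene of chromosome 5, the neighbours of the bright probeset were on chromosome 17. For Hk1, a hexokinase gene of chromosome 10, they were on chromosome 14, and the other probeset of Hk1 read 8.67 against 13.03.

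Such probesets were frequent at the top of the profile. They stood for 35 of the 100 brightest genes, against 1.37% of all 19681 genes that could be checked, and for 30 of 60 ribosomal protein genes. With them left out, Baiap2l1 moved to rank 67, Hk1 to rank 2895, the ribosomal protein gene Rpl23 from rank 86 to 2963 and the tropomyosin gene Tpm3 from 93 to 4239. Of the 100 brightest genes 87 remained. The new 100 brightest held 15 ribosomal protein genes in place of 20, with 15 genes of the matrix lists and 9 of the actin and smooth muscle list. Eef1a1, Actb and Col1a1 then held ranks 1 to 3, and Col1a2, Acta2, Thbs1, Lgals1, Sparc, Fn1 and Vim kept both their probeset and their value. The bright ribosomal and housekeeping genes mostly had another bright probeset, as Ppia (12.84 in place of 12.97) and Rplp0 (12.91 in place of 12.94). Hspa8 fell further, from 12.79 to 11.84 (rank 89), and Rpl21 had no probeset left.

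The cells carried the markers of mesenchyme. Of 16 mesenchyme and fibroblast markers 15 were above the bound, with a median signal of 10.57 and a median rank percentile of 97.8. Vim, the intermediate filament of mesenchymal cells, read 12.89, 13.02 and 13.02, rank 15. Twist1 and Lum, a transcription factor of mesenchyme and the proteoglycan lumican, were the dimmest of the 15 at 8.56 and 8.55. The only marker not above the bound was S100a4, a calcium-binding protein, at 5.43, 5.47 and 5.59. The Y-linked genes fitted the labelled sex, with Eif2s3y at 9.33 ± 0.092, Uty at 8.32 ± 0.038 and Kdm5d at 7.51 ± 0.067 (SD, n = 3). Xist, the RNA of the inactive X chromosome, read 4.03, 4.46 and 4.16, below the bound on every array.

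Lists of markers of other cell types had medians near or below the bound, with single members well above it. Of 20 epithelial markers 12 were above it and 5 above the strict bound, with a median of 5.82. Krt18, a keratin of simple epithelia, was the brightest at 7.36, 7.37 and 7.43, followed by Cldn3 at 6.93, Krt8 at 6.56 and Krt19 at 6.55, all above the strict bound. Other epithelial genes were not above the bound, among them Cdh1, which encodes E-cadherin, at 5.34 on every array, Krt5 of basal cells at 4.85, 5.24 and 4.78, and Epcam at 5.36, 5.19 and 4.99. Of 15 endothelial markers 7 were above the bound and 3 above the strict bound. They included the VEGF receptors Flt1 at 8.40 and Kdr at 7.87, whereas Cdh5 and Pecam1, the junction proteins of endothelium, stood at 5.31 and 5.44 and were not above it. Of 16 macrophage markers 7 were above the bound and 3 above the strict bound, the brightest being the lysozyme gene Lyz2 at 6.70, and Ptprc, the common leukocyte antigen, read 5.56, 5.62 and 5.62. Only Cd3e, at 5.83, was above it among 10 lymphocyte markers, and none was above the strict bound. In these cultures a low level in every cell and a few cells with a high level cannot be told apart.

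Lists for cell types less often found beside mesenchyme gave like values. Of erythroid markers 2 of 6 were above the bound, of glial 3 of 7, of hepatocyte 2 of 9, of neuronal 5 of 12 and of adipocyte markers 4 of 8. Above the strict bound were 0 of the erythroid, glial and hepatocyte markers, 3 of the neuronal and 1 of the adipocyte markers. The shares of these 5 lists were under that of all genes at either bound. Chondrocyte and osteoblast markers had 8 of 11 above the bound and 4 above the strict bound, led by the cartilage collagen Col2a1 at 7.93 ± 0.095. Among 7 mesothelial markers, 4 above the bound and 2 above the strict bound, Wt1, a transcription factor of mesothelium and of urogenital mesenchyme, stood apart at 8.96, 8.83 and 8.96, with the next, Krt19, at 6.55 and Msln at 5.88.

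**Figure D2:**
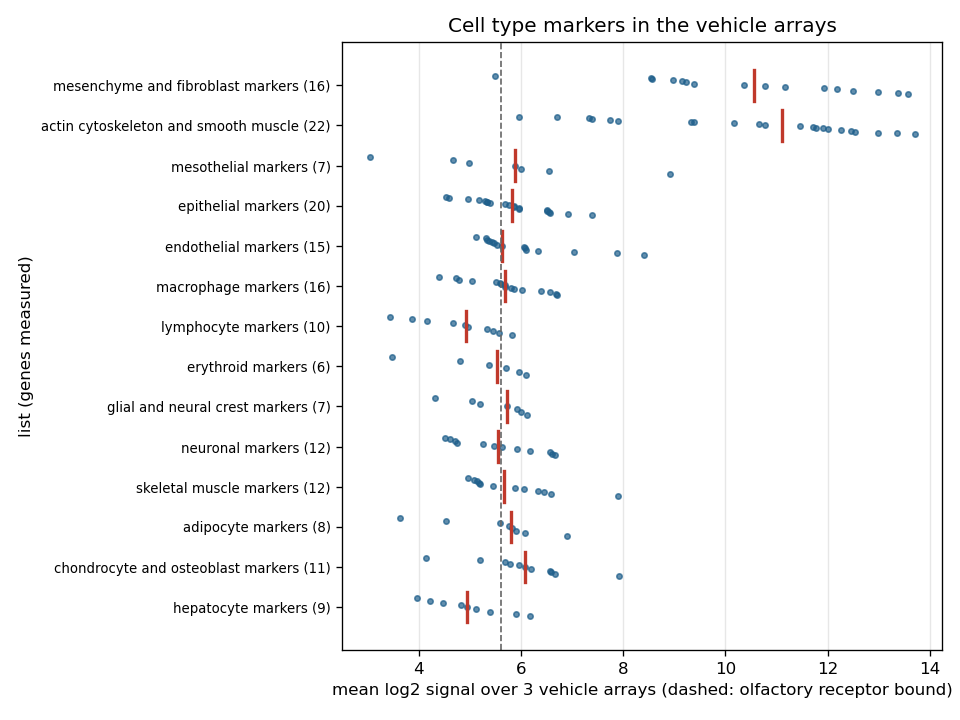
Mean log2 signal over the 3 vehicle arrays (x axis) of the measured genes of each cell type list (y axis, number of genes in brackets), 1 point per gene, with the list median in red and the olfactory receptor bound dashed. The mesenchyme markers have a median of 10.57, and the medians of the other marker lists lie between 4.93 and 6.07. The actin cytoskeleton and smooth muscle list, with a median of 11.11, is drawn beside them. It is not a list of cell type markers and holds general cytoskeletal genes such as Actb and Vim.

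The contractile and cytoskeletal genes were bright as a group. All 22 measured members of the list were above the bound, with a median of 11.11 and a rank percentile of 98.7. Tpm1, a tropomyosin that stabilises actin filaments, read 12.53, 12.52 and 12.53. Tagln, the actin-binding protein SM22, stood at 12.47 ± 0.062. Later markers of smooth muscle were dimmer but far above the bound, with Des, which encodes desmin, at 10.77 ± 0.051, Cnn1, calponin 1, at 10.66 ± 0.076 and Myh11, the smooth muscle myosin heavy chain, at 9.39 ± 0.067 (SD, n = 3). Myocd, the coactivator that drives smooth muscle genes through serum response factor, was the dimmest member at 6.15, 6.01 and 5.74. The cardiac and skeletal actins Actc1 and Acta1 stood at 7.34 and 7.91, and of 12 skeletal muscle markers 6 were above the bound and 2 above the strict bound.

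Promoters of this group were searched for a pair of motifs, because serum response factor binds the CArG box and the TATA box marks a class of strong promoters. The window ran from 250 bases before to 50 bases after the start of each gene (RefSeq, GRCm38.p6), 300 bases in all, with a promoter for 17 of the 22 genes. A CArG box (read on both strands, being its own reverse complement) was in 4 of the 17, or 23.5%, and in 1.43% of 15563 promoters of all named genes. The 4 were the bright genes Myl9, the regulatory myosin light chain, and Cnn2, calponin 2, and the dimmer Acta1 and Actc1. Myl9 read 11.61, 11.71 and 11.82 (rank 125), and Cnn2 read 11.45, 11.46 and 11.46 (rank 170). A CArG box was in 4.23% of the 71 promoters found for the 100 brightest genes and in 3.05% of the 393 found for the 500 brightest. The members of the list were chosen by hand, so its share describes the list and not these cells. The motif TATAAA, read on the gene's strand, was in the Vim promoter 32 bases before the start. Anywhere in the window, it was in 15.5% of the 71 promoters found for the 100 brightest genes and in 7.63% of the 393 found for the 500 brightest. It was in 7.85% of all and in 14.2% of promoters of genes not above the bound. Counted only in a stretch shortly before the start, where the Vim motif lies, the shares were lower. They were 4.23% for the 100 brightest, 2.80% for the 500 brightest, 2.78% for all and 5.22% for genes not above the bound. A match is a stretch of letters and not a shown binding site. The stretches around the motifs are printed 5′ to 3′ on the strand of the gene with the motif in capitals, for Vim (chr2:13574229-13574334, + strand), Myl9 (chr2:156775253-156775362, + strand) and Cnn2 (chr10:79988494-79988603, + strand):
Vim: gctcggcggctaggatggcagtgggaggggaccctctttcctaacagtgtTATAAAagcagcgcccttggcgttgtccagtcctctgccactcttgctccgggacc
Myl9: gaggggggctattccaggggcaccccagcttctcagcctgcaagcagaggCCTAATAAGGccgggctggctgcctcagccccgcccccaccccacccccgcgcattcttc
Cnn2: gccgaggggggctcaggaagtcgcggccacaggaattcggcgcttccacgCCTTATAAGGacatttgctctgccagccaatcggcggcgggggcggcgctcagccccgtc

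Matrix genes were bright across most of their classes. All 13 fibrillar and beaded collagens were above the bound, with a median of 10.32. After type I collagen came Col3a1, the partner of type I in elastic tissues, at 12.55, 12.48 and 12.49, and Col12a1, a collagen on the fibril surface, at 12.34, 12.32 and 12.39. Col5a3 was the dimmest of them at 7.45. Across all 44 collagen chains 43 were above the bound, but the median was 7.30, so the signal was concentrated in few chains. The list of matrix glycoproteins and elastic fibre genes had 21 of 22 above the bound and a median of 10.72. Tnc, tenascin C of fetal and wound stroma, stood at 11.82 ± 0.020. Eln, elastin, was at 9.46 ± 0.12. Vtn, vitronectin, which the liver secretes, was not above the bound at 4.99.

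Proteoglycans spread from 12.44 to 3.61, with 15 of 20 above the bound. Bgn and Dcn, the small proteoglycans biglycan and decorin that bind collagen fibrils, read 12.46, 12.39 and 12.47 and 11.95, 11.91 and 11.92. Kera and Omd, of cornea and bone, were at 4.28 and 3.61. Of the basement membrane genes 18 of 19 were above the bound, with Nid1, which links laminin to collagen IV, at 11.16 ± 0.027. Their brightest laminin chains were Lamb1 at 10.39 and Lamc1 at 10.34. Lama3 and Lamb3, chains of an epithelial laminin, were the dimmest laminins at 5.27 and 5.84.

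The enzymes that build and cut the matrix followed. Lox, which crosslinks collagen and elastin, read 12.50, 12.56 and 12.59, and Plod2, a lysyl hydroxylase, stood at 11.96 ± 0.026. Of the 16 measured genes of collagen processing 15 were above the bound, with Pcolce2 at 5.15 the exception. Among 22 matrix metalloproteases 12 were above the bound, a share of 54.5%, and 2 led by far. Mmp14, the membrane-bound activator of Mmp2, read 12.42, 12.43 and 12.42, and Mmp2, gelatinase A, read 11.29, 11.37 and 11.38. The next was Mmp11 at 9.28, while Mmp3 and the neutrophil collagenase Mmp8 were at 4.83 and 3.45. Timp1, an inhibitor of these proteases, stood at 11.43 ± 0.044.

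Several families had 1 member far above the rest. Among 23 cadherins Cdh11, the cadherin of mesenchyme, read 12.17, 12.18 and 12.18. The next, the placental cadherin Cdh3, was 2.91 log2 units lower at 9.27, and Cdh2, neural cadherin, stood at 9.23. Among 8 galectins Lgals1 exceeded the next, Lgals8, by 4.28 log2 units. Among 32 CC and CXC chemokines Cxcl12, the ligand of Cxcr4, read 10.97, 10.97 and 10.99. That was 3.71 log2 units over Ccl7 at 7.27, and 12 of the 32 were above the bound and 6 above the strict bound. Each of these gaps joins probesets of different genes and so also holds their difference in affinity. In the integrins Itgb1, the beta chain shared by most matrix receptors, read between 11.99 and 12.01, followed by Itgav at 10.69. Itgb6, of epithelium, was the dimmest at 3.59. Annexins Anxa1 and Anxa5 were at 12.28 and 12.25, and their arrays overlapped.

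Secreted ligands were dimmer than the matrix. In the list of prostate mesenchyme paracrine factors 36 of 38 were above the bound, with a median of 7.92. The brightest were the matricellular proteins Ccn2 at 11.67, 11.83 and 11.73 and Ccn1 at 11.21, 11.41 and 11.32, then Cxcl12 and Tgfb3, at 10.87 ± 0.017. Inhba, the activin A subunit, stood at 10.15 ± 0.068. Fgf10 and Fgf7, which act on the budding epithelium, read 6.63 ± 0.080 and 7.46 ± 0.059, and the brightest FGF ligand was Fgf18 at 8.52, 8.43 and 8.81. Of 22 FGF ligands 14 were above the bound and of 19 Wnt ligands 13, shares of 63.6% and 68.4% that lie near that of all genes. Above the strict bound were 7 of each family, a smaller share than that of all genes. Wnt5a was the brightest Wnt at 8.71, 8.67 and 8.69, 1.30 log2 units over Wnt11. Bmp4, which restrains ductal budding, stood at 8.39 ± 0.043. Bmp2 was not above the bound at 4.79. Shh, a hedgehog ligand that the epithelium secretes, was at 5.85, 6.03 and 5.76, just over the bound. Its receptor Ptch1 and its target Gli1 were at 6.70 and 6.34, dimmer than the hedgehog transducer Smo at 8.98.

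**Figure D3:**
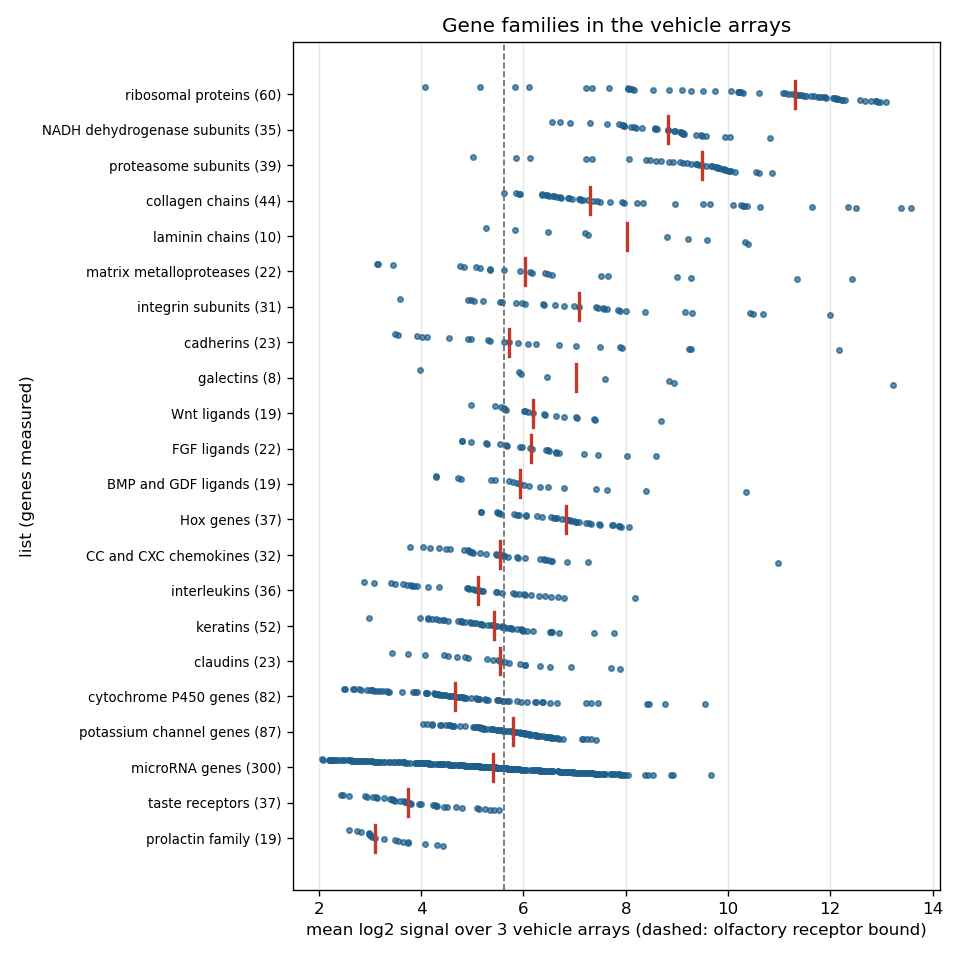
Mean log2 signal over the 3 vehicle arrays (x axis) of the members of 22 gene families (y axis, number of genes in brackets), 1 point per gene, with the family median in red and the olfactory receptor bound dashed. Single points far to the right of their family are Lgals1 at 13.23, Cdh11 at 12.18 and Cxcl12 at 10.98.

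Receptors and modulators were mostly above the bound. Of 27 growth factor receptors 23 were, led by Pdgfrb, the receptor of perivascular and stromal cells, at 10.80, 10.77 and 10.77. Ddr2, a collagen receptor, stood at 10.35 and Egfr at 10.05. Fgfr1, the mesenchymal FGF receptor, was at 9.43, and Fgfr2, which binds Fgf7 and Fgf10 in epithelium, at 6.58. Of 30 Wnt receptors and modulators 27 were above the bound. Ctnnb1, beta-catenin, and Wls, the carrier that exports Wnt proteins, were both at 11.03. Sfrp1, a secreted Wnt antagonist, stood at 9.90 ± 0.099 and the receptor Fzd1 at 9.52 ± 0.027. In the IGF axis 15 of 17 were above the bound. The binding proteins Igfbp7 (11.50), Igfbp5 (11.40) and Igfbp6 (10.87) were the brightest of them, and the ligands Igf1 and Igf2 stood at 8.20 and 7.78.

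Steroid signalling genes were of middling brightness. Of the 20 measured receptors and coregulators 16 were above the bound, with a median of 7.58. Esr1, estrogen receptor alpha, read 7.48, 7.44 and 7.49, rank 6751, and Esr2, estrogen receptor beta, read 5.34, 5.40 and 5.34 and was not above the bound. Pgr, the progesterone receptor and an estrogen target, read 6.57, 6.84 and 6.77. Nr3c1, the glucocorticoid receptor, was brighter at 8.38 ± 0.016, and Nr3c2, the mineralocorticoid receptor, was not above the bound at 4.68. Fkbp5 and Fkbp4, cochaperones of steroid receptors, were at 9.05 and 8.72. Of 20 steroid metabolism genes 9 were above the bound, or 45.0%. They included Hsd17b10 at 9.94, Hsd17b12 at 9.68 and Cyp1b1, which hydroxylates estradiol, at 9.55 ± 0.040. The genes of steroid synthesis from cholesterol were not above it, as Hsd3b1 at 3.40, Cyp17a1 at 4.86 and Cyp11a1 at 4.85, nor was the testicular Hsd17b3 at 3.82.

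Among transcription factors of mesenchyme 32 of 33 were above the bound, with a median of 7.90. Prrx1 read 11.17, 11.16 and 11.17, and the Hox cofactors Meis2 and Meis1 stood at 10.20 and 10.14. Hox genes set position along the body axis, and their paralogue number follows their order in each cluster. Of 37 Hox genes 31 were above the bound, or 83.8%, in a narrow range from 5.16 to 8.06. All 10 genes of the Hoxa cluster, 8 of 9 of Hoxb, 6 of 9 of Hoxc and 7 of 9 of Hoxd were above it, and of Hoxd 3 were above the strict bound. Hoxa11, of the urogenital and limb domain, read 8.04, 8.02 and 8.11, followed by Hoxb9 at 7.91, Hoxa5 at 7.88 and Hoxa10 at 7.86. The arrays of these last 3 overlapped. In paralogue group 13, which marks the hind end of the body, Hoxd13 was at 7.75 ± 0.032 and Hoxa13 at 7.09 ± 0.10. Hoxb13 was not above the bound at 5.60, 5.71 and 5.35, nor was Hoxc13 at 5.18. The median by paralogue group was highest in group 11, at 7.48, and lowest in group 12, at 5.49.

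**Figure D4:**
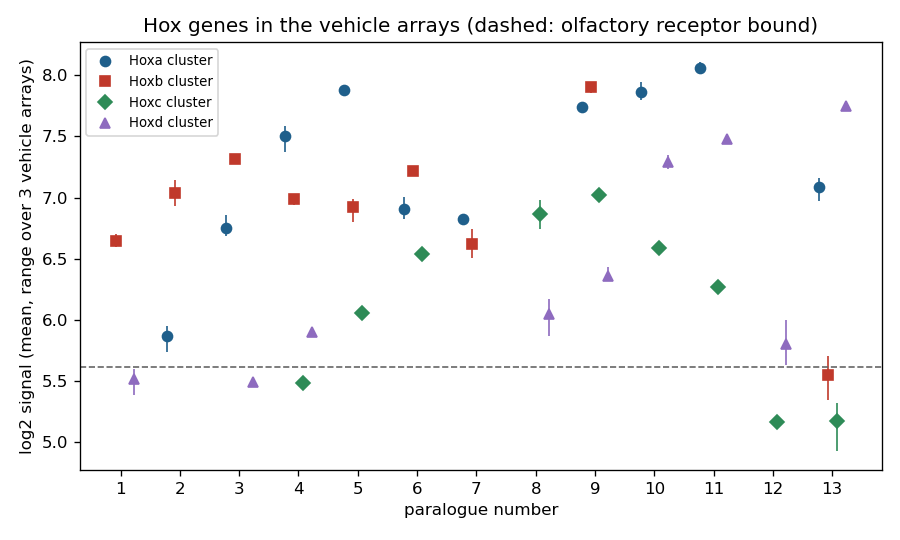
Log2 signal (y axis; mean, with the range over the 3 vehicle arrays as a line) of the 37 Hox genes by paralogue number (x axis), with colour and shape for the cluster and the olfactory receptor bound dashed. Hoxa11 at 8.06 is the highest, Hoxd13 at 7.75 leads group 13, and 6 genes are not above the bound.

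Lists of growth and metabolism had nearly every member above the bound, over a wide range of signal. All 22 cell cycle genes were above the bound, with Ccnd2, a D-type cyclin, at 11.95 ± 0.067, Pcna at 9.88 and Mki67, the Ki-67 antigen, at 8.98 ± 0.087. All 18 cholesterol synthesis genes and all 35 NADH dehydrogenase subunits were above it as well, between 6.66 and 10.64 and between 6.56 and 10.82. In glycolysis 16 of 17 were, with Ldha at 12.26 and Aldoa at 12.16. The brain aldolase Aldoc and the muscle enzyme Pgam2 were at 7.10 and 5.49. All 18 AP-1 and immediate-early genes were above the bound, though with a median of 7.59, and Fos was at 6.95, 6.79 and 7.01.

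Families tied to other organs filled the dim end. Of 52 keratins 18 were above the bound and of 82 cytochrome P450 genes 17, shares of 34.6% and 20.7%, and 7 and 9 were above the strict bound. Of 36 interleukins 12 were above the bound and 5 above the strict bound. Il33, an alarmin stored in stromal nuclei, led them at 8.28, 8.08 and 8.16, and Il6 was among the dimmest genes of all at 2.94, 2.90 and 2.77, rank 19540. No member of the vomeronasal, taste receptor or prolactin families, of 163, 37 and 19 genes, was above the bound. The olfactory receptors that set the bound had 39 genes over it on all 3 arrays and 9 over the strict bound, the brightest being Olfr767 at 8.25, 8.80 and 8.25.

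Further families ranged from bright housekeeping complexes to dim channel and junction genes. Of 39 proteasome subunits 38 were above the bound and of 8 chaperonin subunits 7, where the exceptions were the testis forms Psma8 at 5.01 and Cct6b at 4.42. Of 20 semaphorins 17 were above it and 10 above the strict bound, led by the secreted guidance cues Sema3a at 9.75 and Sema3d at 9.52. Of 21 ephrins and Eph receptors 18 were, with Epha3 at 10.65, 10.66 and 10.72 and the next, Efnb1, at 8.80. Of 18 Adamts proteases 17 were above the bound, led by Adamts12 at 9.67. Of 17 cathepsins, the lysosomal proteases, 11 were, with Ctsl at 11.05 and Ctsd at 10.93. The S100 proteins parted into bright and dim members, since S100a11, S100a10 and S100a6 stood at 11.91, 11.86 and 10.95 and 7 of 13 were not above the bound. S100a11 read 11.56 without its probeset among neighbours of another chromosome. Of 23 claudins, the strands of tight junctions, 8 were above it and 4 above the strict bound, led by Cldn11 at 7.88. Of 87 potassium channel genes 48 were, and 14 were above the strict bound, none brighter than Kcnma1 at 7.35, 7.40 and 7.52.

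MicroRNA genes were examined after their values had been seen. A probeset here reads RNA from the hairpin or its host transcript and not the mature microRNA. Of 300 genes with a microRNA name 124 were above the bound, or 41.3%, and 74 above the strict bound. The 300 hold 4 long host genes (Mir99ahg, Mir100hg, Mir670hg and Mir17hg), without which 122 of 296 were above the bound. The imprinted Dlk1-Dio3 region of chromosome 12, whose noncoding RNAs are made from the maternal copy, held 40 of them, and 31 of these, or 77.5%, were above the bound. Elsewhere 93 of 260 were, or 35.8% (91 of 256 without the host genes). Above the strict bound were 23 in the region and 51 elsewhere. The median was 6.74 in the region and 5.14 elsewhere, and 8 of the 25 brightest microRNA genes lay in the region. Meg3, the long noncoding RNA at its start (chr12:109540996-109571729), read 11.38, 11.44 and 11.47, rank 176. Rian, which follows it, was at 7.88 ± 0.15, Dlk1 at 7.59 ± 0.12 and Dio3 at 5.33, not above the bound. Genes of 1 region can share a transcript and are not independent.

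The brightest microRNA genes of the region were Mir341, at 9.03, 8.81 and 8.93, Mir667, at 8.10, 7.99 and 8.07, Mir679, at 7.85, 8.02 and 8.01, and Mir673, at 7.97, 7.99 and 7.84. The arrays of the last 3 overlapped. Their mature sequences (RefSeq, GRCm38.p6) are shown because each pairs with its targets through its own seed, bases 2 to 8 in capitals, and the 8 seeds were all different:
mmu-miR-341-3p: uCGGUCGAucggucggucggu
mmu-miR-341-5p: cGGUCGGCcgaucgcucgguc
mmu-miR-667-3p: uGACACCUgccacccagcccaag
mmu-miR-667-5p: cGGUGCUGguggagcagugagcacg
mmu-miR-679-3p: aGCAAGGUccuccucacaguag
mmu-miR-679-5p: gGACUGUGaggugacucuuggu
mmu-miR-673-3p: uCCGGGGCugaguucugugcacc
mmu-miR-673-5p: cUCACAGCucugguccuuggag

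The vehicle arrays were then set against the 6 E2 arrays, to find which genes mark the state without estrogen. Of 19938 genes tested with limma, 2 were higher in vehicle than in the mean of the E2 groups, or 0.01%, and 4 were lower, or 0.0201%. None of the 100 brightest genes was called. Their median difference in size was 0.023, and the widest was that of Sparcl1, a matrix glycoprotein, which was 0.19 higher in vehicle (limma adjusted p = 0.464). Sparcl1 stood at 12.48 with vehicle, 12.47 at 10 pM and 12.11 at 100 pM, so averaging the E2 groups understates its difference at 100 pM. At an unadjusted p below 0.05 there were 1371 genes. Of the 571 genes on the lists only Eln was called.

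Eln read 9.54, 9.51 and 9.31 with vehicle, 9.22, 9.28 and 9.17 at 10 pM E2 and 8.27, 7.92 and 8.14 at 100 pM. The vehicle arrays lay above all E2 arrays, and most of the difference was at 100 pM. Vehicle exceeded the mean of the E2 groups by 0.79 ± 0.079 log2 units (SE; limma adjusted p = 0.0157). Egfl6, a secreted EGF-like protein, was 0.82 ± 0.092 higher with vehicle (limma adjusted p = 0.0323), at 7.31, 7.19 and 7.41 against 7.09, 7.17 and 7.22 at 10 pM and 6.01, 5.56 and 5.84 at 100 pM. The vehicle and 10 pM arrays of Egfl6 overlapped.

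The 4 genes lower in vehicle had their highest group mean at 100 pM. Their vehicle and E2 arrays did not overlap, but the genes were chosen by this same contrast. The arrays of Pgr and Esr1, which were not called, did not overlap either. The share of all genes without overlap is not given here. Angpt2, an angiopoietin that acts on vessels, read 6.15, 6.22 and 6.05 with vehicle, and its means at 10 and 100 pM were 6.49 and 6.81. Its difference was -0.51 ± 0.043 (limma adjusted p = 0.0113). The other 3 were Car12, a carbonic anhydrase, with a difference of -0.75 ± 0.068, Spock3, a secreted proteoglycan, with -0.67 ± 0.059, and Clca3a2, of the chloride channel accessory family, with -0.39 ± 0.037. The 6 called genes stood between 6.14 (Angpt2) and 9.46 (Eln, rank 1421) in vehicle. Angpt2 and Clca3a2 were above the bound but below the strict bound on every vehicle array, and Car12 was below the strict bound on vehicle replicate 2. Pgr differed by -0.75 ± 0.093 and Esr1 by -0.15 ± 0.041, which did not pass the threshold (limma adjusted p = 0.0556 and 0.381). The counts were fragile, since leaving out single arrays moved the number higher in vehicle between 0 and 11 and the number lower between 0 and 15.

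**Figure D5:**
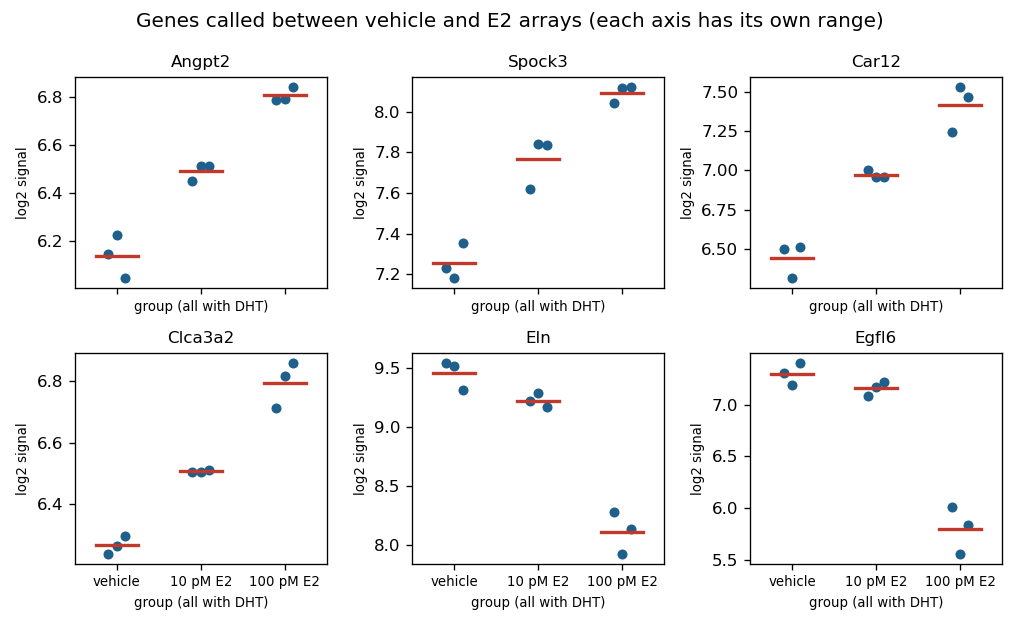
Log2 signal (y axes, each with its own range) of the 6 genes called between vehicle and E2 arrays, by group (x axis), 1 point per array and the group mean in red. Angpt2, Spock3, Car12 and Clca3a2 have their lowest arrays with vehicle, and Eln and Egfl6 have their lowest at 100 pM E2.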

How the data were processed

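RNA of 9 arrays was analysed, with 3 per group by the sample titles. The deposited table holds log2 signals per probeset, which the authors made from scanned images with GeneChip Operating Software and Gene Expression Console (versions and normalization not given in the sources used here). The log2 scale was read from the values, and 8.38 to 9.38% of genes had the same value on a pair of vehicle arrays.

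Of 35556 probesets, the platform annotation, which is old, paired 21789 with 1 gene symbol and 1621 with several, and 12146 were unnamed here. Entrez identifiers of 21698 matched the GRCm38.p6 gene table. The probeset with the highest vehicle mean stood for each of 19938 genes, of which 999 had more than 1. A probeset was placed by up to 6 neighbours on either side, where 80% or more shared a chromosome.

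Members, 34 gene lists and 32 families were chosen with earlier results of these data known. Genes were named by a rule, of which the text prints a part. The rule takes the 25 brightest genes, the 10 brightest outside ribosomal, actin, tubulin, histone, elongation factor and Gapdh genes, the 4 brightest and 3 dimmest of each list, Hox genes above the bound, fixed markers, the 8 most variable genes and called genes. Other genes were named for their known roles after their values were seen.

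All 9 arrays entered limma 3.58.1 (R 4.3.3, lmFit and eBayes) with 1 mean per group. The contrast was vehicle minus the mean of the E2 groups, with a threshold of 0.05 on the p-value adjusted by Benjamini and Hochberg. The closing section gives the alternatives tried. On simulated data for this contrast with 19938 genes, 92 of 100 changes of 0.5 and 99 of 100 changes of 1 log2 unit were found. Whether such shares hold for the measured arrays was not tested. On the measured arrays Pgr differed by -0.75 and did not pass the threshold (limma adjusted p = 0.0556). The number of arrays limits the precision. P-values measure the spread between these arrays, which may be technical. Figures used matplotlib 3.10.9.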

Additional observations from a re-analysis of the deposited data

How the results depend on the processing

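Under the alternatives for the vehicle profile, between 10095 genes (99th percentile of the olfactory receptors) and 15852 genes (vomeronasal receptors) were above the bound, and 12999 to 13099 when a vehicle array was left out. With keratin-associated proteins as the reference, chosen after seeing the data, the count was 5916. Of the 100 brightest genes, 89 stayed there with the mean of a gene's probesets, 87 without probesets placed on another chromosome, and 58 when genes with several probesets were left out, which removed 42 of them by construction. The last 2 alternatives were also chosen after seeing the data. Of 66 lists and families, 33 had a median rank percentile above 50, and 33 or 34 under each alternative run. The largest shift of a list was that of ribosomal proteins, by 16.8 percentile points with only genes of 1 probeset.

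The comparison with E2 depended on the settings. The numbers of genes higher and lower in vehicle were 9 and 14 with quantile normalization and 4 and 9 with median centring. They were 35 and 36 among genes above the bound in at least 1 group, and 30 and 34 with eBayes trend and robust. One-way analysis of variance tests any difference among the 3 groups. By the sign of the main contrast, it called 0 genes higher and 1 lower in vehicle. Leaving out an array gave 0 to 11 higher and 0 to 15 lower. Both were 0 without vehicle replicate 1, 10 pM replicates 2 or 3, or 100 pM replicate 3. They were 0 and 1 without vehicle replicate 2, 0 and 2 without vehicle replicate 3 or 10 pM replicate 1, 9 and 15 without 100 pM replicate 1, and 11 and 9 without 100 pM replicate 2. The cause was not tested. With the replicate block, 3 genes were higher and 7 lower. Deviations of arrays that share a number correlated between -0.112 and 0.201, and those of other arrays between -0.189 and 0.168. With 3 arrays per group, these values cannot decide whether the numbers pair the arrays. Over 17 alternatives the 6 called genes kept their direction, which for the analysis of variance was taken from the main contrast. Each gene was called in 9 to 12 of the 17.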
